A study of Mus musculus with 8 samples.

Results

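Immediate early genes are the genes that a cell transcribes first after a growth factor, a depolarisation or a stress, from factors already present in the cell. The 10 genes described here, Fos, Fosb, Jun, Junb, Atf3, Egr1, Egr2, Nr4a1, Ier2 and Dusp1, were chosen by name from this class, with earlier results of these data known. They were found through the transcript accession of each array probe, and each of the 10 had 1 probe. They belong to the 19752 genes with a symbol on the array, and all 10 are among the 13790 genes that entered the tests.

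RNA came from neural stem and progenitor cells (NSPCs) grown as neurospheres, free-floating balls of such cells, from mouse embryonic stem cells. Cells that overexpress NFIA, a transcription factor known for starting astrocyte formation, grew mixed with control cells, and fluorescence-activated sorting parted them before RNA was taken. The 4 groups, of 2 arrays each, are NFIA cells of secondary neurospheres (SN_NFIA, passage 1, day 12), control cells of the same passage (SN_control), NFIA cells of primary neurospheres (PN_NFIA, passage 0, day 6) and control cells of that passage (PN_control). All groups shared the mixed culture and the sort, 50 ng of RNA was labelled for an array, and the labels name neither the promoter that drives NFIA nor the number of clones. They do not say whether the 2 arrays of a group came from separate cultures, so the p-values measure the spread between these arrays, which may be technical.

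Some assignments of arrays conflict. The column of a sample in the authors' value table matched the scanner file of another sample in 7 of 8 cases, and the values below follow the table. Groups follow the sample titles, while the source names call all 4 control samples the NFIA line and call PN_NFIA 1 and SN_NFIA 2 wild type. With that choice, primary and secondary samples fill a slide row each and NFIA and control samples fill separate columns, and effects of slide position cannot be told apart from passage or NFIA. All 8 neural stem and progenitor markers (Sox1, Sox2, Nes, Pax6, Hes5, Fabp7, Msi1 and Prom1) were well above background on all 8 arrays. The Nfia probe stood at 1.70 and 1.63 in SN_NFIA, 1.01 and 0.63 in SN_control, -0.23 and 0.94 in PN_NFIA, and -1.30 and -0.29 in PN_control arrays, and its difference over both passages was 1.0 ± 0.32 with an adjusted p of 0.171 in limma.

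Immediate early genes are best known from the serum response. The kinase ERK activates ternary complex factors, which sit with the serum response factor on CArG boxes, and other kinases activate CREB, which binds the cAMP response element TGACGTCA or its shorter form TGACG. FOS and JUN proteins pair as AP-1, which binds TGANTCA, and EGR proteins bind GC-rich sites such as GCGNGGGCG. In neural tissue these genes are used as marks of recent activity, and they are also induced when tissue is dissociated.

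Promoter windows of 300 bases, 250 before and 50 after a RefSeq transcript start (GRCm38.p6), were searched for 8 of the 10 members. Egr1 and Ier2 are not shown and are left out of all motif counts of the members. Each motif was searched on both strands. The 4 windows below are shown because their genes differ in behaviour across the arrays. Fos, Egr2 and Nr4a1 moved together across the arrays, and Dusp1 did not follow them. Capitals mark a CArG box, the CREB motif TGACG (which reads CGTCA on the opposite strand), the AP-1 motif TGANTCA and the TATA box, searched as TATAAA. The full CREB motif also holds the short one on each strand. The Egr2 window is 1 of several starts of that gene.
Fos, chr12:85473640-85473939, plus strand: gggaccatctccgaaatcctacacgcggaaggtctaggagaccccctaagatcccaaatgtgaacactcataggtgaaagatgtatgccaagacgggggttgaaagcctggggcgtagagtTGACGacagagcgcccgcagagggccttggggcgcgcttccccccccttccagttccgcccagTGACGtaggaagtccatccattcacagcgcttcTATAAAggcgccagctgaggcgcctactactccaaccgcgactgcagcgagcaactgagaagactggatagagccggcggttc
Egr2, chr10:67537619-67537918, plus strand: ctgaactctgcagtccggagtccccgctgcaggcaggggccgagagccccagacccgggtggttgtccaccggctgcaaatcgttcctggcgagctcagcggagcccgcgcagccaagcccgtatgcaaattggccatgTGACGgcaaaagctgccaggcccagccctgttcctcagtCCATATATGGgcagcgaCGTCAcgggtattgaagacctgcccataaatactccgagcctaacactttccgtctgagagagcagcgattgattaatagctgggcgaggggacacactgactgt
Nr4a1, chr15:101266596-101266895, plus strand: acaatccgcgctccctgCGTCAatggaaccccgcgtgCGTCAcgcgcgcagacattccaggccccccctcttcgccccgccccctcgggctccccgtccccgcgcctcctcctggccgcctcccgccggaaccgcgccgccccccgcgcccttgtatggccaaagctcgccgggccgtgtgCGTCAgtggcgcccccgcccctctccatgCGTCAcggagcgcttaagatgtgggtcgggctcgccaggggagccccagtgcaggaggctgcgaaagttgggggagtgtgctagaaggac
Dusp1, chr17:26508423-26508722, minus strand: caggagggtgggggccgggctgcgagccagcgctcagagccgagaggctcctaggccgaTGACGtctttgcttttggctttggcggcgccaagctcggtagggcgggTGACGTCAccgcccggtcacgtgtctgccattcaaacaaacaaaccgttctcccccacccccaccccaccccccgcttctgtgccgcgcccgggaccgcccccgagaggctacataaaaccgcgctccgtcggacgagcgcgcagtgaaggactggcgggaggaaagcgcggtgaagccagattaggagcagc
TGACG was found in 7 of the 8 members searched, all but Jun, against 23% of the 27025 genes with a window. The CArG box was found for 1 member, Egr2, against 1.81% of genes, and the full TGACGTCA for 1 member, Dusp1, against 2.03%. TATAAA was found for Fos and Junb, against 15.7% of genes, GCGNGGGCG for Fosb and Nr4a1, against 6.27%, and TGANTCA for 0 members, against 8.97%. A match describes the letters and is no sign of binding. The windows reach 250 bases before a start, and sites further upstream were not searched. A motif without a match here, such as the CArG box for Fos, may therefore lie outside the window.

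NFIA cells had higher values than control cells for all 10 genes over both passages, with differences between 0.09 (Dusp1) and 2.23 (Egr2) and a median of 1.37, against -0.05 over all genes tested. None of the 10 passed the test over all genes in the 8 arrays as they stand. With same-numbered NFIA and control samples of a passage treated as pairs, Fos, Fosb, Junb and Atf3 passed. Junb and Atf3 entered the tests only because both arrays of an NFIA group were well above background. Their passing is therefore no independent support for higher values in NFIA cells. The labels say that both cell types were sorted from mixed cultures but not which numbers shared one, and the pairing rests on how same-numbered arrays deviate together. Since the pairing was taken from these same data, the p-values of the fit with pairs may be too small. Values are log2 signals relative to the 75th percentile of each array, differences are in log2 with the SE of the fit, and adjusted p is Benjamini-Hochberg over 13790 genes in limma with a threshold of 0.05. Levels are compared within a gene only, since probes differ in brightness. In bulk RNA, fewer cells with a transcript and less of it per cell cannot be told apart.

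Of the AP-1 genes, Fos encodes the FOS subunit, which binds DNA only with a partner such as JUN. The level of Fos was 2.97 and 4.75 in SN_NFIA, 0.53 and 3.20 in SN_control, 2.31 and 1.26 in PN_NFIA, and 0.88 and -0.90 in PN_control arrays. Both PN_NFIA arrays lay above both PN_control arrays, and SN_NFIA 1 lay below SN_control 2, so the secondary groups overlapped. Over both passages Fos differed by 1.90 ± 0.70 (adjusted p = 0.22), and with same-numbered arrays as a block the SE was 0.22 and the adjusted p 0.027. Over all alternatives run, most of them without this block, the adjusted p ranged from 0.0262 to 1. The low end, here and for Fosb, Junb and Atf3 below, came from a replicate block crossed between passages, which was chosen after the data were seen.

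Fosb encodes a FOS relative that takes the same place in AP-1. Its level was 0.15 and 1.90 in SN_NFIA, -1.06 and 1.13 in SN_control, 0.82 and -1.15 in PN_NFIA, and -0.76 and -3.07 in PN_control arrays. The groups overlapped within each passage, yet NFIA lay above control in each same-numbered pair. Its difference was 1.37 ± 0.77 (adjusted p = 0.404), with a block SE of 0.22 and adjusted p of 0.0488, and 0.0343 to 1 over the alternatives.

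Jun encodes the JUN subunit, the partner of FOS proteins, and its arrays differed least from replicate to replicate. Its level was 5.39 and 6.10 in SN_NFIA, 4.79 and 5.28 in SN_control, 6.11 and 5.96 in PN_NFIA, and 5.59 and 5.43 in PN_control arrays. NFIA arrays lay above control arrays in both passages, with no overlap. The difference was 0.62 ± 0.21 (adjusted p = 0.197; 0.0787 with the block).

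Junb encodes a JUN relative that can act against JUN at AP-1 sites. Its probe was dim, and it was well above background on only 3 arrays: both SN_NFIA arrays and PN_NFIA 1. The level was -3.59 and -2.77 in SN_NFIA, -5.16 and -4.30 in SN_control, -3.81 and -4.49 in PN_NFIA, and -5.36 and -5.49 in PN_control arrays. In each passage both NFIA arrays lay above both control arrays. Since no control array was well above background, its change is a bound: at least 1.18-fold higher in NFIA cells over both passages. This bound sets the NFIA mean against the control mean after lifting each control array to the dimmest signal that counts as well above background there. The adjusted p was 0.0559 and, with the block, 0.027, and it ranged from 0.0222 to 0.967 over the alternatives. With normexp background correction the fitted log2 difference was 0.22.

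Atf3 encodes an ATF/CREB-family factor that pairs with JUN proteins and is known as a stress-induced gene. Its level was -2.54 and -0.99 in SN_NFIA, -5.32 and -3.44 in SN_control, -0.76 and -2.76 in PN_NFIA, and -2.12 and -4.88 in PN_control arrays, with SN_control 1 and PN_control 2 not well above background. In secondary neurospheres both NFIA arrays lay above both control arrays, and in primary ones PN_NFIA 2 lay below PN_control 1. The difference was 2.18 ± 0.78 (adjusted p = 0.211), and the block gave an SE of 0.26 and an adjusted p of 0.0282, with a range over alternatives of 0.0222 to 1. Since 2 of the 4 control arrays were not well above background, the size of this difference is uncertain: with normexp background correction it was 0.85.

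**Figure D1:**
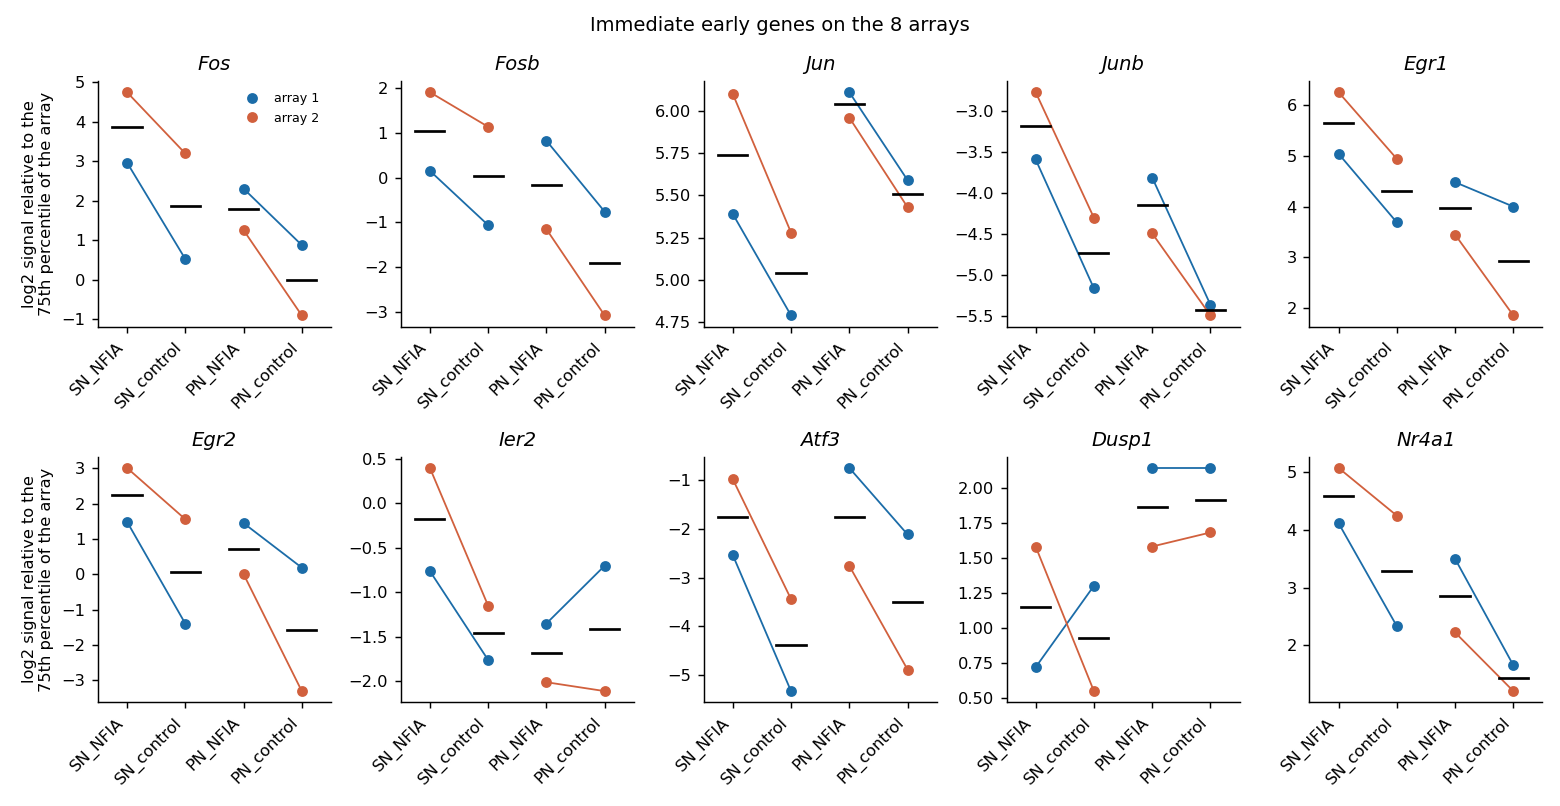
Level of each of the 10 genes (log2 signal relative to the 75th percentile of the array) on each of the 8 arrays, 1 panel a gene with its own scale; points are arrays (blue for array 1, orange for array 2), lines join same-numbered NFIA and control arrays of a passage, and black bars are group means. For Fos the SN_NFIA arrays stood at 2.97 and 4.75 and the SN_control arrays at 0.53 and 3.20, so the spread within a group was about as wide as the gap between groups.

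The EGR genes encode zinc-finger factors. Egr1, a widely used marker of recent cell activity, had levels of 5.04 and 6.25 in SN_NFIA, 3.69 and 4.94 in SN_control, 4.48 and 3.45 in PN_NFIA, and 4.0 and 1.86 in PN_control arrays. SN_NFIA and SN_control did not overlap, and PN_NFIA 2 lay below PN_control 1. The difference was 1.18 ± 0.55 (adjusted p = 0.315; 0.0603 with the block).

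Egr2, which is also known for hindbrain segmentation and for myelination by Schwann cells, showed the widest span of the 10 genes over both passages. It stood at 1.49 and 3.01 in SN_NFIA, -1.39 and 1.56 in SN_control, 1.45 and 0.01 in PN_NFIA, and 0.19 and -3.30 in PN_control arrays. Groups overlapped within both passages, and PN_control 2 was the lowest array. The difference of 2.23 ± 0.91 had an adjusted p of 0.257, and 0.0578 with the block.

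Nr4a1 encodes an orphan nuclear receptor induced by growth factors. Its level was 4.12 and 5.08 in SN_NFIA, 2.33 and 4.25 in SN_control, 3.5 and 2.22 in PN_NFIA, and 1.65 and 1.20 in PN_control arrays. The primary groups did not overlap, while SN_NFIA 1 lay just below SN_control 2. The difference was 1.37 ± 0.48 (adjusted p = 0.198; 0.0519 with the block).

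Ier2 encodes a nuclear protein of the early growth factor response. Its level was -0.76 and 0.40 in SN_NFIA, -1.76 and -1.15 in SN_control, -1.35 and -2.01 in PN_NFIA, and -0.70 and -2.11 in PN_control arrays. In secondary neurospheres both NFIA arrays lay above both control arrays, and in primary ones the groups overlapped. NFIA minus control was 1.28 ± 0.58 in secondary and -0.28 ± 0.58 in primary neurospheres, and the difference between these effects was 1.55 ± 0.82 with an adjusted p of 0.867 (0.247 with the block). Over both passages it differed by 0.50 ± 0.48 (adjusted p = 0.646; 0.477 with the block).

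Dusp1 encodes a phosphatase that removes the activating phosphates of MAP kinases and so limits the response that induces it. Its level was 0.72 and 1.58 in SN_NFIA, 1.30 and 0.55 in SN_control, 2.14 and 1.58 in PN_NFIA, and 2.14 and 1.68 in PN_control arrays. NFIA and control arrays overlapped in both passages. The difference of 0.09 ± 0.28 had an adjusted p of 0.906 (0.875 with the block).

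**Figure D2:**
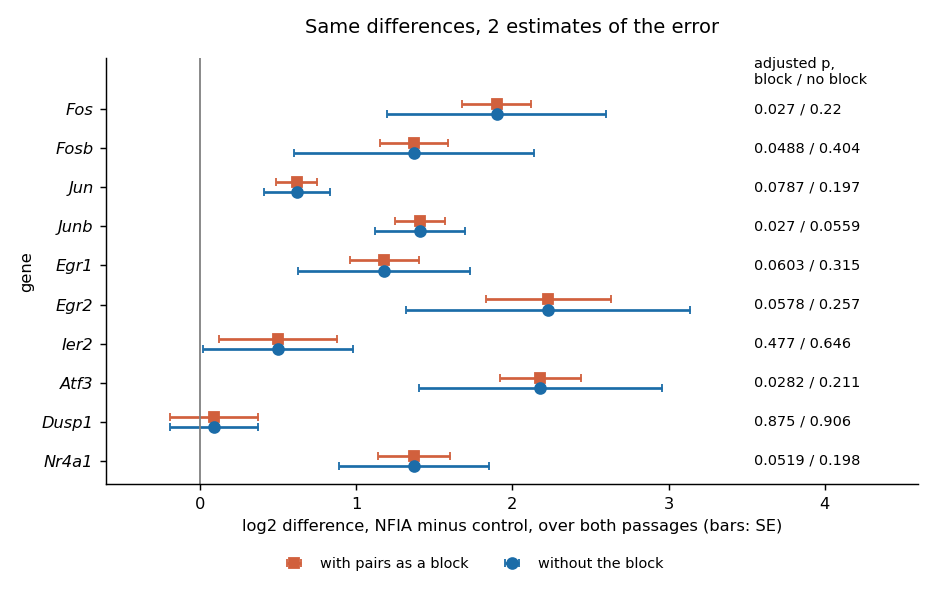
Difference of NFIA minus control over both passages (log2) for each of the 10 genes, with bars of 1 SE from the fit without and with same-numbered arrays of a passage as a block. The estimates run from 0.09 for Dusp1 to 2.23 for Egr2, and the bar of Fos is 0.70 without and 0.22 with the block. Adjusted p-values stand at the right, and the value of Junb is the fitted one, whose control arrays are below the brightness limit.

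Over both passages 0 of the 10 genes passed, against 1.75% of all genes called higher and 0.189% called lower, and 6 of the 10 had an unadjusted p under 0.05, all higher, against 10.3% of all genes with such a p and higher values. With the block, 4 of 10 rose, against a background of 2.22%, and 8 had an unadjusted p under 0.05, against 12.2% of all genes with such a p and higher values. Junb and Atf3, among those called, entered the tests through NFIA groups alone. Within the passages the medians were close: 1.32 in secondary and 1.35 in primary neurospheres, with 10 and 8 of the 10 genes positive. Without the block 0 of 10 passed in either, against 0.479% of all genes called higher and 0.428% lower in secondary neurospheres, and 0.312% higher and 0.0% lower in primary ones. The lowest adjusted p was 0.145 in secondary and 0.381 in primary neurospheres, both for Junb. It was the 1 gene with an unadjusted p under 0.05 in each, where 8.64% and 6.87% of all genes had one and were higher. With the block, Fos rose by 2.0 ± 0.32 (adjusted p = 0.0461) and Atf3, with SN_control 1 not well above background, by 2.62 ± 0.26 (adjusted p = 0.03) in secondary neurospheres, and Junb passed as at least 1.22-fold higher (adjusted p = 0.0382), against 2.73% of genes called higher. Over all alternatives, most of them without this block, the adjusted p reached 0.984 for Fos and Atf3 and 0.917 for Junb. In primary neurospheres 0 of the 10 passed with the block, where 0.508% of genes were called higher, 8 had an unadjusted p under 0.05, against 10.7% of genes with such a p and higher values, and the lowest adjusted p was 0.0585, for Fosb. The 2 groups did not overlap for Atf3, Egr1, Ier2, Jun and Junb in secondary neurospheres and for Fos, Jun, Junb and Nr4a1 in primary ones, all with NFIA above control, against 18.9% and 22.2% of all genes.

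The 2 arrays whose source names say wild type bear on these values. SN_NFIA 2 was the highest of the 8 arrays for 7 genes and PN_NFIA 1 for the other 3. Without both, the median difference over both passages was 0.72 in place of 1.37, 0.78 in secondary neurospheres and 0.75 in primary ones. With groups taken from the source names, the median over both passages was -1.60 and all 10 differences turned in sign. With the scanner files as attached, the median was -0.10. The direction therefore rests on both the sample titles and the array assignment of the value table.

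NFIA minus control was also taken within each of the 4 same-numbered pairs. For Fos the pairs differed by 2.44 and 1.55 in secondary and by 1.44 and 2.16 in primary neurospheres. For Junb they differed by 1.57 and 1.54 in secondary and by 1.55 and 1.0 in primary ones, with the dim control arrays noted above. Atf3 gave 2.79 and 2.45 in secondary and 1.36 and 2.12 in primary pairs, where 2.79 and 2.12 are set against control arrays not well above background. NFIA lay above control in all 4 pairs for 8 of the 10 genes (all but Ier2 and Dusp1), against 15.1% of all genes. For Ier2 the PN pairs gave -0.65 and 0.10, and for Dusp1 the SN pairs gave -0.58 and 1.03.

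**Figure D3:**
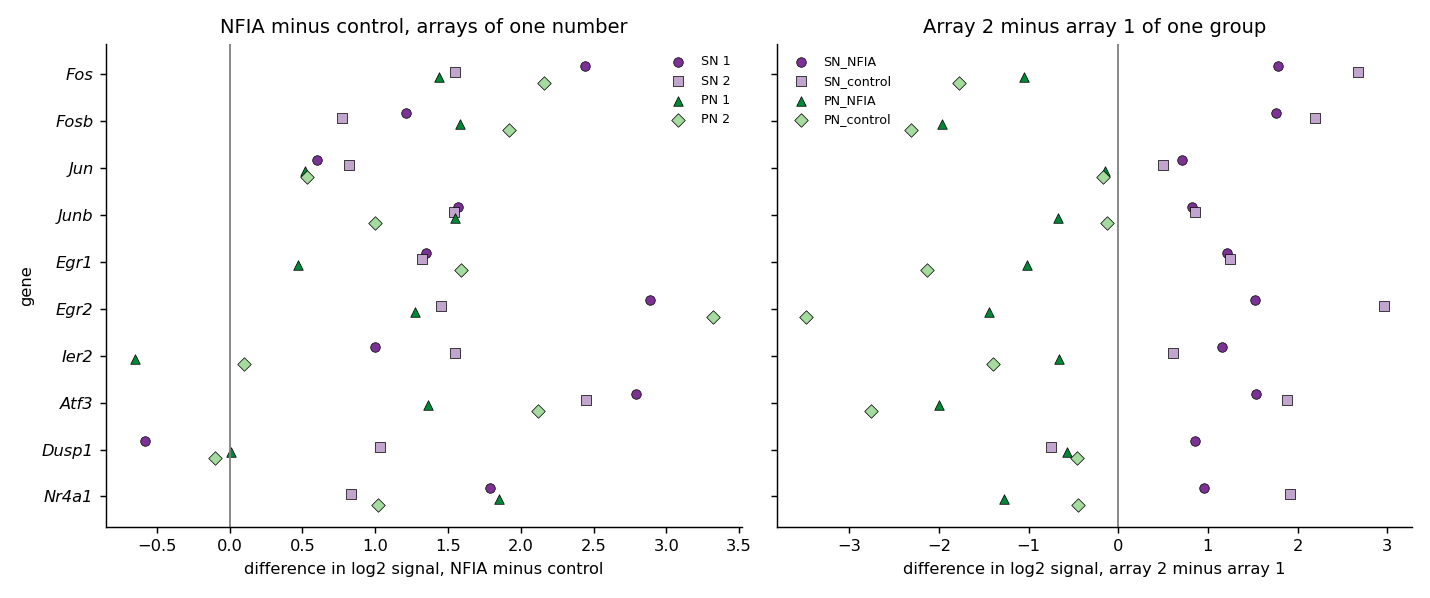
Left, NFIA minus control (log2) in each same-numbered pair of arrays, and right, array 2 minus array 1 of each group (log2), for each of the 10 genes; violet symbols are secondary and green ones primary neurospheres. On the left all 4 points lie above 0 for 8 of 10 genes, all but Ier2 and Dusp1, and on the right violet points lie above 0 and green ones below it for 9 of 10, all but Dusp1.

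Much of the spread was shared by the 2 cell types of a passage. In secondary neurospheres array 2 lay above array 1 for 10 of 10 genes in NFIA cells and 9 of 10 in control cells, and in primary neurospheres it lay above for 0 of 10 in either. All 4 directions held for 9 of the 10 genes (all but Dusp1), against 16.6% of all genes. For Fos, array 2 minus array 1 was 1.78 in SN_NFIA, 2.67 in SN_control, -1.05 in PN_NFIA and -1.78 in PN_control. For Egr2 it was 1.52, 2.96, -1.44 and -3.49 in the same groups. These gaps between replicates are as large as the NFIA differences, and replicate numbers carry no order between passages. The mean of the 10 genes, each centred on its own mean, was 0.51 and 1.74 in SN_NFIA, -1.0 and 0.41 in SN_control, 0.70 and -0.38 in PN_NFIA, and -0.24 and -1.75 in PN_control arrays.

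Most of the 10 genes followed each other across the arrays. The correlation of a gene with the mean of the other 9 over the 8 arrays, which share groups and pairs, was 0.97 for Egr2, 0.95 for Fos, 0.94 for Fosb and Egr1, 0.90 for Junb, 0.87 for Nr4a1, 0.81 for Ier2 and 0.78 for Atf3. Jun gave 0.53 and Dusp1 -0.16. Among 11661 other genes well above background on all arrays, those most like the mean of the 10 were Ifi30, Gsta4 and Smoc2, each with r = 0.96, then Creg1 (0.94) and Mt1, Ticam1, Tnfrsf12a and Lalba (0.93 each). For Fos alone they were Acad12, Gusb and Ccdc28a, with r = 0.97. These are descriptions over 8 arrays.

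Between passages, secondary against primary, 7 of the 10 genes were higher and 3 lower over both cell types, with a median of 1.18 against -0.08 for all genes. None of the 10 passed the test in limma, where 3.34% of all genes were called higher and 3.75% lower. An unadjusted p under 0.05 was found for 4 higher genes (Fos, Junb, Egr1 and Nr4a1) and for Dusp1, lower, against 11.1% of all genes higher and 15.2% lower. Junb entered the tests through SN_NFIA alone, a secondary group. Its higher value in secondary neurospheres is therefore no independent result. Nr4a1 came nearest, at 1.80 ± 0.48 (adjusted p = 0.0606), with a mean of 3.94 in secondary and 2.14 in primary neurospheres. Fos differed by 1.98 ± 0.70 (adjusted p = 0.123) and Egr1 by 1.53 ± 0.55 (adjusted p = 0.126). Dusp1 differed the other way, at -0.84 ± 0.28 (adjusted p = 0.11), and Jun by -0.38 ± 0.21 (adjusted p = 0.297). Atf3 had a passage difference of -0.45 ± 0.78 (adjusted p = 0.756). When 1 array was left out, the median passage difference of the 10 genes ranged from 0.85 to 1.52.

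In NFIA cells the median passage difference was 1.34 and in control cells 1.04, and 0 of the 10 passed in either, where 0.544% of all genes were called higher and 1.35% lower in NFIA cells, and 0.696% higher and 0.109% lower in control cells. An unadjusted p under 0.05 was found for Ier2 and Nr4a1 in NFIA cells and for Nr4a1 in control cells, all higher, against 9.66% and 6.48% of all genes. The secondary and primary groups did not overlap for 6 genes in NFIA cells, all higher in secondary neurospheres (Egr1, Egr2, Fos, Ier2, Junb and Nr4a1), against 25.8% of all genes. Of these, Junb entered the tests through SN_NFIA alone. In control cells they did not overlap for Nr4a1 and for Junb, whose probe was not well above background on any control array, higher, and for Dusp1 and Jun, lower, against 16.3% and 26.5% of all genes. The NFIA comparisons and the passage comparisons share arrays, so their values are not independent. Without the block, 0 of the 10 genes passed in limma for a difference of the NFIA effect between passages, as did 0.0% of all genes. An unadjusted p under 0.05 was found for 0, against 2.64% of all genes with a larger and 4.02% with a smaller effect in secondary neurospheres. The lowest adjusted p was 0.867, for Ier2. With the block 0 passed, and Ier2 alone had an unadjusted p under 0.05 (1.55 ± 0.39, adjusted p = 0.247). The share of all genes with such a p in that fit is not given here.

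The order of the groups, by the mean of a gene, put SN_NFIA highest for 8 of the 10 genes and PN_control lowest for 6. Junb, which entered the tests through SN_NFIA alone, is among both. For Fos the means were 3.86 in SN_NFIA, 1.86 in SN_control, 1.79 in PN_NFIA and -0.01 in PN_control. SN_control and PN_NFIA did not differ beyond their spread. For Nr4a1 they were 4.6 in SN_NFIA, 3.29 in SN_control, 2.86 in PN_NFIA and 1.42 in PN_control.

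Other genes of the same response were taken from lists written from textbook knowledge, with earlier results of these data known. Of 40 other immediate and delayed early genes, 36 were measured. Over both passages 3 rose and 0 fell in NFIA cells, against 1.75% of all genes called higher and 0.189% lower. Of the 36 genes, 29 were positive, with a median of 0.46, against 44.6% positive among all genes. Fosl2, an AP-1 subunit, stood at 1.06 and 1.43 in SN_NFIA, -1.42 and 0.23 in SN_control, -0.43 and 0.00 in PN_NFIA, and -2.75 and -2.62 in PN_control arrays, and rose by 2.16 ± 0.36 (adjusted p = 0.0319). Klf4, a zinc-finger factor, rose by 1.33 ± 0.22 (adjusted p = 0.031) and Csrnp1, a nuclear protein induced by growth signals, by 1.44 ± 0.27 (adjusted p = 0.0467). For Klf4 and Csrnp1, and in each passage for Fosl2, all NFIA arrays lay above the control arrays of the same passage. Between passages Fosl2 rose by 1.78 ± 0.36 (adjusted p = 0.0328), Myc rose by 1.37 ± 0.27 (adjusted p = 0.0317), Trib1, a pseudokinase, fell by 0.76 (adjusted p = 0.0432), and the list's median was 0.07. Of all genes, 3.34% were called higher and 3.75% lower between passages.

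Of 14 genes of ERK feedback, 11 were measured and 0 passed in either comparison, with 9 positive and a median of 0.40 for NFIA. For NFIA 5 had an unadjusted p under 0.05, all higher, against 10.3% of all genes with such a p and higher values. For passage 7 had one, with Spred2 and Dusp4 lower and the others higher, against 11.1% of all genes higher and 15.2% lower. Etv1 and Etv5, ETS factors downstream of FGF signalling, came nearest with 0.90 ± 0.24 (adjusted p = 0.121) and 0.85 ± 0.23 (adjusted p = 0.122). Of 20 upstream kinases and factors, all were measured and 1 rose, against 1.75% of all genes called higher. This was Elk3, a ternary complex factor, by 1.27 ± 0.22 (adjusted p = 0.0329), with a list median of 0.01. Between passages Elk3 and Rps6ka5, a kinase acting on CREB, rose by 0.92 ± 0.22 (adjusted p = 0.0455) and 1.29 ± 0.29 (adjusted p = 0.0399), against 3.34% of all genes called higher.

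Stress genes were listed as well, since dissociation and sorting can induce immediate early genes. Of 12 heat shock genes, 10 were measured, and Bag3, a co-chaperone, rose by 1.64 ± 0.15 (adjusted p = 0.0101) and Hspb1, a small heat shock protein, by 1.46 ± 0.18 (adjusted p = 0.0142) in NFIA cells. Of all genes, 1.75% were called higher. The list's median was -0.04, with 5 of 10 positive. Hspa1a and Hspa1b were not measured, so this median does not cover them. Between passages Hspb1 fell by 0.85 (adjusted p = 0.037), the 1 call of the list, against 3.75% of all genes called lower. Bag3 stood at 2.04 and 2.02 in SN_NFIA, 0.56 and 0.47 in SN_control, 1.51 and 1.69 in PN_NFIA, and -0.17 and -0.15 in PN_control arrays. The mean of the heat shock list was 5.08 and 5.16 in SN_NFIA, 4.85 and 5.0 in SN_control, 5.42 and 5.26 in PN_NFIA, and 5.0 and 5.02 in PN_control arrays. Of 7 genes of the ATF4 branch of the stress response, 0 passed for NFIA (median -0.24). Of these, 1 had an unadjusted p under 0.05 for NFIA: Chac1, a glutathione-degrading enzyme, which was lower. The share of all genes with such a p and lower values is not given here. Between passages Chac1 fell by 1.45 (adjusted p = 0.0396) and Sesn2 by 0.95 (adjusted p = 0.0373), against 3.75% of all genes called lower. The part of heat shock or of the ATF4 branch in the levels of the 10 genes was not tested.

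**Figure D4:**
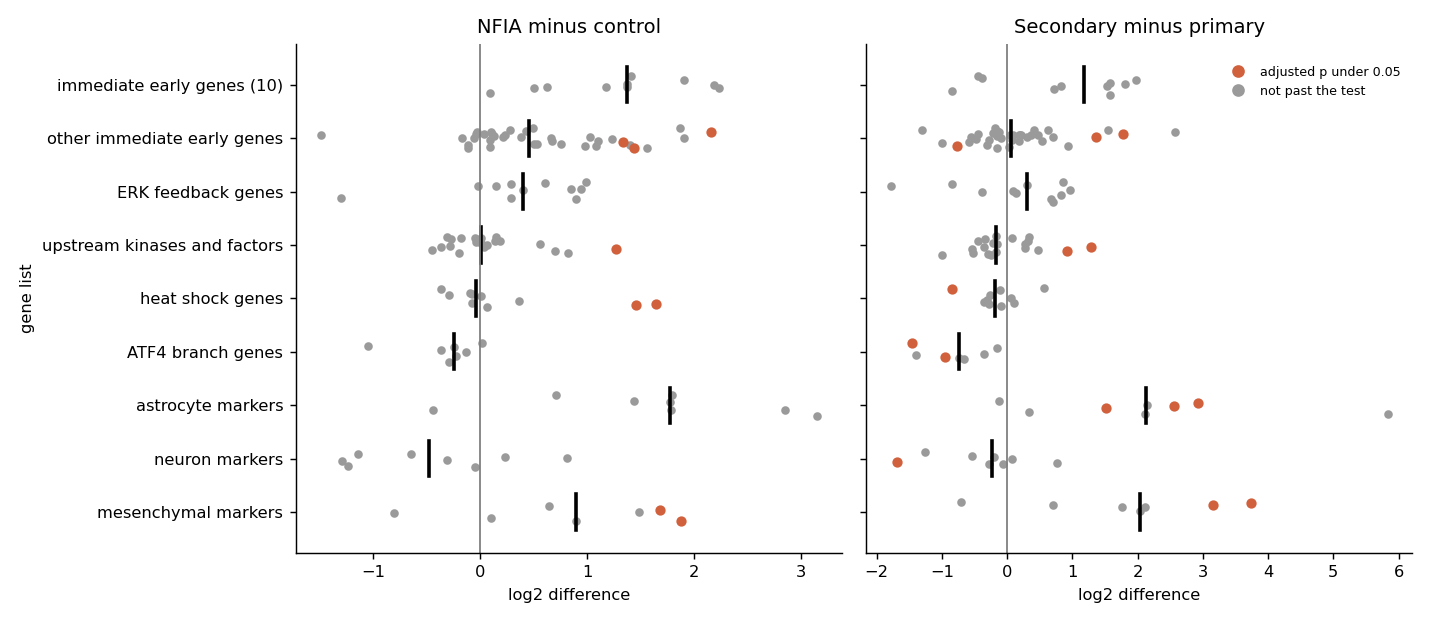
Log2 differences of the genes of each list, NFIA minus control (left) and secondary minus primary (right); points are genes, vertical bars list medians, and orange points genes with adjusted p under 0.05. The 10 genes have a median of 1.37 for NFIA and 1.18 for passage, and none is orange in either panel.

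Markers of other cell types were examined in the same comparisons. The mean of 8 astrocyte markers was 1.30 and 3.17 in SN_NFIA, -0.83 and 1.72 in SN_control, -0.44 and 0.26 in PN_NFIA, and -1.71 and -1.41 in PN_control arrays. For NFIA 0 of 8 passed, and the median was 1.77. An unadjusted p under 0.05 was found for 4, all higher, against 10.3% of all genes with such a p and higher values. Aldoc and Slc1a3 came nearest, at 2.85 ± 0.57 (adjusted p = 0.0518) and 1.44 ± 0.35 (adjusted p = 0.0924), and Gfap was well above background on 2 arrays, both SN_NFIA. The mean of 7 mesenchymal markers was 1.15 and 1.62 in SN_NFIA, 1.09 and 1.94 in SN_control, 0.12 and 0.93 in PN_NFIA, and -1.19 and -1.37 in PN_control arrays. Prrx1 and Acta2 rose in NFIA cells (1.88 ± 0.24 and 1.68 ± 0.31), against 1.75% of all genes called higher. For NFIA over both passages 6 of the 7 were positive, with a median of 0.90. In primary neurospheres 7 were positive (median 1.86), but in secondary ones only 3 were (median -0.71). The mean of 8 neuron markers lay between 2.69 and 3.83 on the arrays, lowest in SN_NFIA 2. For NFIA 0 of 8 neuron markers passed, with Stmn2 at -1.29 ± 0.37 (adjusted p = 0.138) and Elavl3 at -1.14 ± 0.44 (adjusted p = 0.234). An unadjusted p under 0.05 was found for 3, all lower, a direction for which no share of all genes is given here. The mean of 7 oligodendrocyte lineage markers was -0.16 and 1.73 in SN_NFIA, -0.19 and 2.54 in SN_control, -1.20 and -0.82 in PN_NFIA, and -1.44 and -1.39 in PN_control arrays. In both secondary groups array 2 was the higher one, as for Fos and for the means of several other lists, among them the astrocyte, mesenchymal, pluripotent and heat shock ones. For NFIA 0 of the 7 passed, with Mbp at -1.28 ± 0.34 (adjusted p = 0.122) and Mog at 0.57 ± 0.19 (adjusted p = 0.185). Both had an unadjusted p under 0.05. For Mog, which was higher, 10.3% of all genes had such a p and higher values. For Mbp, which was lower, no share of all genes is given here. The smallest adjusted p of the other lists without a call for NFIA was 0.48 for Pax6 and 0.642 for Fabp7 (neural stem), 0.546 for Dppa3 and 0.566 for Esrrb (pluripotent), 0.363 for Ttr and 0.788 for Sox17 (endoderm), and 0.315 for Hba-a1 and 0.615 for Csf1r (blood). Between passages, secondary against primary, 3.34% of all genes were called higher and 3.75% lower. Of the 8 astrocyte markers 3 rose: Aldh1l1 by 2.56 ± 0.57, Slc1a3 by 1.52 ± 0.35, and Gfap. Gfap was not well above background on any primary or SN_control array. It entered the tests through SN_NFIA alone, so its rise is no independent result. Pdgfra rose by 3.12 ± 0.71 and so did Cspg4 by 2.62 ± 0.52 (2 of 7 oligodendrocyte lineage markers, list median 2.62), and Col1a1 by 3.73 ± 0.71 and Dcn by 3.15 ± 0.43 (2 of 7 mesenchymal markers). The neural stem marker Pax6 fell by 2.14, the neuron marker Stmn2 by 1.69 and the pluripotent marker Esrrb by 1.72. The adjusted p of these passage calls lay between 0.0156 for Dcn and 0.0493 for Gfap. In primary neurospheres the means of most lists lay higher in both NFIA arrays than in both control arrays, as Fos did. This held for the astrocyte and mesenchymal means, and also for the oligodendrocyte lineage, pluripotent, endoderm, blood, endothelial and heat shock means. The neural stem, neuron and ATF4 branch means lay lower in both NFIA arrays. Of the endothelial markers, 3 of 5 were measured, and Emcn was at least 1.54-fold higher in NFIA cells (adjusted p = 0.0284). Emcn was well above background on no control array, so it entered the tests through NFIA arrays alone. Of the blood markers, Ptprc and Aif1 did not pass the brightness filter, and Cd68 was not matched to a probe by symbol. The part of these cell types in the immediate early gene levels was not tested.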

How the data were processed

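Arrays were 1-colour Agilent arrays, 1 a sample, labelled with Cy3 per the labels' protocols. The deposited intensity of a spot is the processed signal of Feature Extraction 10.5.1.1 per the file headers (10.7.3.1 per the submitters' processing notes). The deposited value table holds the authors' log2 values, centred on each probe's median (largest absolute probe median 0.000245). A column matched 1 scanner file with r of at least 0.9999 and any other with at most 0.3384, and the table was followed. That choice was made with this conflict known. Other deposited columns used are flags, 0 or 1 a spot.

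Signals were taken to log2 less the array's 75th percentile (300.8 to 618), with 45.4% to 56.4% of spots well above background. A probe was kept if both arrays of some group had it well above background; 126 probes were left out by outlier flags. The brightest probe stood for a gene (3644 of 13790 genes had several). limma 3.58.1 in R 4.3.3 fitted 4 group means and, for effects over both passages, additive NFIA and passage terms, with Benjamini-Hochberg adjustment. Deviations from the group means of same-numbered arrays correlated at 0.48 in secondary and 0.45 in primary neurospheres over 13790 genes, so same-numbered samples of a passage were taken as pairs in the fit with a block. The labels say that cultures were mixed, not which numbers shared one. A pairing chosen from the same data can make the p-values of that fit too small. The fit was tested on simulated arrays with 200 changed genes.

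The members and lists were chosen with earlier results of these data known. Named are all 10 members, Nfia, list genes past the test over both passages (else the 2 with the smallest p), the 8 genes most like the mean of the members and the 3 most like Fos; list genes past the test for passage were added after their values were seen. The 23 alternatives cover background correction, scaling, filter, probe choice, array and group assignment, blocks, variance model and each array left out. The normexp alternative used the median spot signal.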

Additional observations from a re-analysis of the deposited data

How the results depend on the processing

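In the other settings 0 of the 10 genes passed for NFIA in primary neurospheres, as in the reported values. Over both passages the number of the 10 genes called for NFIA was 1 with median scaling and 4 with the replicate block within each passage; in secondary neurospheres it was 3 with that block. The replicate block over all groups changed no call of the 10 genes, and the within-passage block changed no call beyond those given. A crossed replicate block, chosen after seeing that the deviations of same-numbered arrays did not run together between passages (r 0.04 in NFIA and -0.19 in control cells), called 6 for NFIA over both passages, 1 in secondary neurospheres, 6 for passage over both cell types, and 1 each for passage in control and in NFIA cells. For passage over both cell types 1 gene was called with normexp background correction, with probes well above background on all arrays, and with trend and robust variance, and 0 to 2 when 1 array was left out (2 without SN_control 1).

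With the scanner files as attached, the NFIA difference over both passages was -0.10 for Fos, -0.09 for Jun, -0.15 for Egr1, -0.78 for Ier2, -0.44 for Atf3 and -0.13 for Dusp1, and the median was -0.10. The medians were then -1.04 for NFIA in secondary neurospheres, -0.11 for passage in NFIA cells and -1.79 for the difference of effects, and the passage differences over both cell types were 0.13 for Jun, 1.1 for Atf3 and 0.66 for Dusp1. With groups by source name, where the only wild-type arrays are the 2 titled NFIA, NFIA over both passages gave -2.21 for Fos, -2.15 for Fosb, -0.70 for Jun, -1.44 for Junb, -1.53 for Egr1, -2.47 for Egr2, -0.94 for Ier2, -2.63 for Atf3, -0.53 for Dusp1 and -1.66 for Nr4a1. The medians were -1.60 over both passages, -1.59 in primary and -1.66 in secondary neurospheres, and -0.31 for the difference of effects. Dusp1 was -0.27 without the 2 NFIA arrays named wild type, and ranged from -0.11 to 0.23 with 1 array left out (-0.09 without SN_control 2 and -0.11 without SN_NFIA 2). Atf3 between passages ranged from -0.93 to 0.19 with 1 array left out (0.19 without PN_control 1 and 0.02 without SN_control 1). The cause of these turns was not tested.

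When 1 array was left out, the median of the 10 genes ranged from 1.0 to 1.66 for NFIA over both passages, 0.68 to 2.04 in secondary and 0.50 to 1.88 in primary neurospheres, 0.66 to 2.07 for passage in NFIA cells, 0.10 to 1.56 for passage in control cells, 0.85 to 1.52 for passage over both, and -0.43 to 0.88 for the difference of effects. Over all genes tested, 267 were called for NFIA over both passages (33 to 355 with 1 array left out, 0 to 352 in other settings), 125 in secondary (6 to 442, 0 to 643) and 43 in primary neurospheres (0 to 85, 0 to 136). For passage 978 were called over both cell types (51 to 1650, 0 to 1365), 261 in NFIA cells (0 to 709, 0 to 528) and 111 in control cells (8 to 434, 0 to 149), and for the difference of effects 0 (0 to 29, 0 to 20). Fitting only the groups compared was not run for comparisons over both passages. Signal over background limits Junb on 5 arrays and Atf3 on 2.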
